A study of Mus musculus with 25 samples.

Results

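The 80 genes described here carry the names of families of synaptic vesicle proteins and of the machinery that fuses vesicles with a membrane. Some share only the name, among them 8 other RAB GTPases, the clathrin assembly gene *Snap91* and the mitochondrial outer membrane gene *Synj2bp*. They were chosen by symbol, as every gene of the deposited table whose name begins with or equals that of a synaptotagmin, syntaxin, SNAP, VAMP, synapsin, SV2, RAB3, RIM, UNC13, complexin, synaptophysin, synaptojanin, NSF, SCAMP, synaptogyrin or CAPS family member. They are 80 of the 9931 genes with a symbol in the table. The libraries were 3′ RNA-seq of neurons sorted from the sensorimotor cortex, 25 libraries in 8 groups. All mice were 4 to 6 weeks old, of the C57BL/6 strain, and carried homozygous floxed *Rest* alleles with a STOP-flox TdTomato reporter. Cortical injection of AAV-Syn-GFP left REST in place (called WT), and AAV-Syn-Cre deleted it (REST cKO). In both vectors a human synapsin promoter drives expression, which limits it to transduced neurons. Injured mice received a complete crush of the spinal cord at T10 (SCI). Neurons positive for GFP or tdTomato were sorted from sham mice (4 WT and 3 REST cKO libraries) and at 1 day (3 and 2), 3 days (3 and 4) and 7 days (3 and 3) after SCI. The 3 WT libraries of day 7 were female, and the 3 REST cKO libraries of day 7 and the 3 of REST cKO sham were male, so that genotype and sex cannot be told apart at day 7. Females and males numbered 2 and 2 in WT sham, 2 and 1 in WT at day 1 and 1 and 2 in WT at day 3. In REST cKO they numbered 1 and 1 at day 1 and 3 and 1 at day 3. Every comparison but that of REST cKO day 7 with REST cKO sham was thus uneven in sex.

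Vesicle release begins when the SNARE proteins of the vesicle (VAMP) and of the plasma membrane (syntaxin and SNAP25) zip into a common bundle. UNC13 and CAPS proteins prepare that bundle, complexins hold it, and synaptotagmins bind calcium and trigger fusion. RAB3 and RIM proteins dock the vesicle at the active zone, synapsins tether the reserve pool, and NSF with its SNAP adaptors (*Napa*, *Napb* and *Napg*) takes the bundle apart again. REST, also called NRSF, is a zinc-finger repressor that binds the RE1 element and silences neuronal genes outside neurons. Synaptic vesicle genes such as *Syn1*, *Syp*, *Snap25* and *Syt4* are textbook REST targets.

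The RE1 element was searched as its left part TTCAGCACC and its right part GGACAGCGC set 2 bases apart, on both strands, with at most 4 mismatches over the 18 letters, from 250 bases before to 50 bases after the start of each gene. RefSeq promoter sequences of GRCm38.p6 were found for 63 of the 80 members. The others, among them *Snap25*, *Syt4* and *Vamp2*, were not searched. The element was in 2 of the 63 (3.17%) and in 53 of the 7866 promoters found among all genes tested (0.674%). At most 3 mismatches left the same 2 members and 14 of the 7866 (0.178%). Both matches had 2 mismatches and lay upstream of the start on the strand of the gene, with its first base at -154 in *Scamp5* and at -232 in *Syn1*. The 2 stretches are shown because they are the only element matches among the 63 members searched, and the capitals mark the 18 letters compared:
*Scamp5*, minus strand of chr9:57468155-57468254: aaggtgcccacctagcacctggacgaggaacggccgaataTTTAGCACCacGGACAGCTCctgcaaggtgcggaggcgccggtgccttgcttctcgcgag
*Syn1*, minus strand of chrX:20921091-20921168: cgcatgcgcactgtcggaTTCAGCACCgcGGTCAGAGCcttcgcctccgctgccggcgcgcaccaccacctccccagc
A match describes letters and not a bound site, and REST elements outside this window were not searched.

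*Rest* itself, the targeted gene, had higher values in WT than in REST cKO libraries at days 3 and 7 after SCI. Its log2 values were -0.55, -0.26, -0.39 and -1.55 in WT sham and -2.65, -0.79 and -0.52 in REST cKO sham. At day 3 they were 1.64, 2.88 and 0.56 in WT and -0.04, -0.31, -0.24 and -1.61 in REST cKO, and at day 7 they were 0.26, 2.30 and 2.74 in WT and -1.21, -0.33 and -0.97 in REST cKO. The groups did not overlap at day 3 or day 7 and overlapped in sham and at day 1, where they were -1.35, 0.71 and 0.27 in WT and -0.43 and -0.40 in REST cKO. The limma difference of REST cKO from WT was -1.61 (SE 0.92, adjusted p = 0.809) at day 3 and -2.28 (SE 0.92, adjusted p = 0.401) at day 7, neither past the threshold of 0.1. Whether the sequenced 3′ end lies outside the deleted part is not given in the sources used here.

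The libraries held RNA of other cell types beside neurons. The 12 neuron markers on the list used here (for example *Rbfox3*, *Map2* and *Camk2a*) were all measured and their summed linear level ran from 15.3 to 45.1 per library. The 11 microglial markers (for example *Cx3cr1*, *Csf1r* and *P2ry12*) were all measured too, lay above -2 in all 25 libraries and summed to between 79.4 and 125 per library, above the neuron sum in 25 of 25. With reads from the 3′ end, these levels are not scaled by gene length. Of the 9 astrocyte markers 6 were measured, and the 9 oligodendrocyte and 7 endothelial markers were all measured. In bulk RNA, fewer neurons in a library and less RNA of a gene per neuron cannot be told apart. The summed neuron markers were 30.3 to 45.1 in REST cKO sham and 17.5 to 29.6 in WT sham, without overlap. Low values were also uneven, since the share of all genes under -2 on the log2 scale was 2.77% to 16.98% in 24 libraries and 29.5% in WT SCI day 3 replicate 5, which stood apart.

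**Figure D1:**
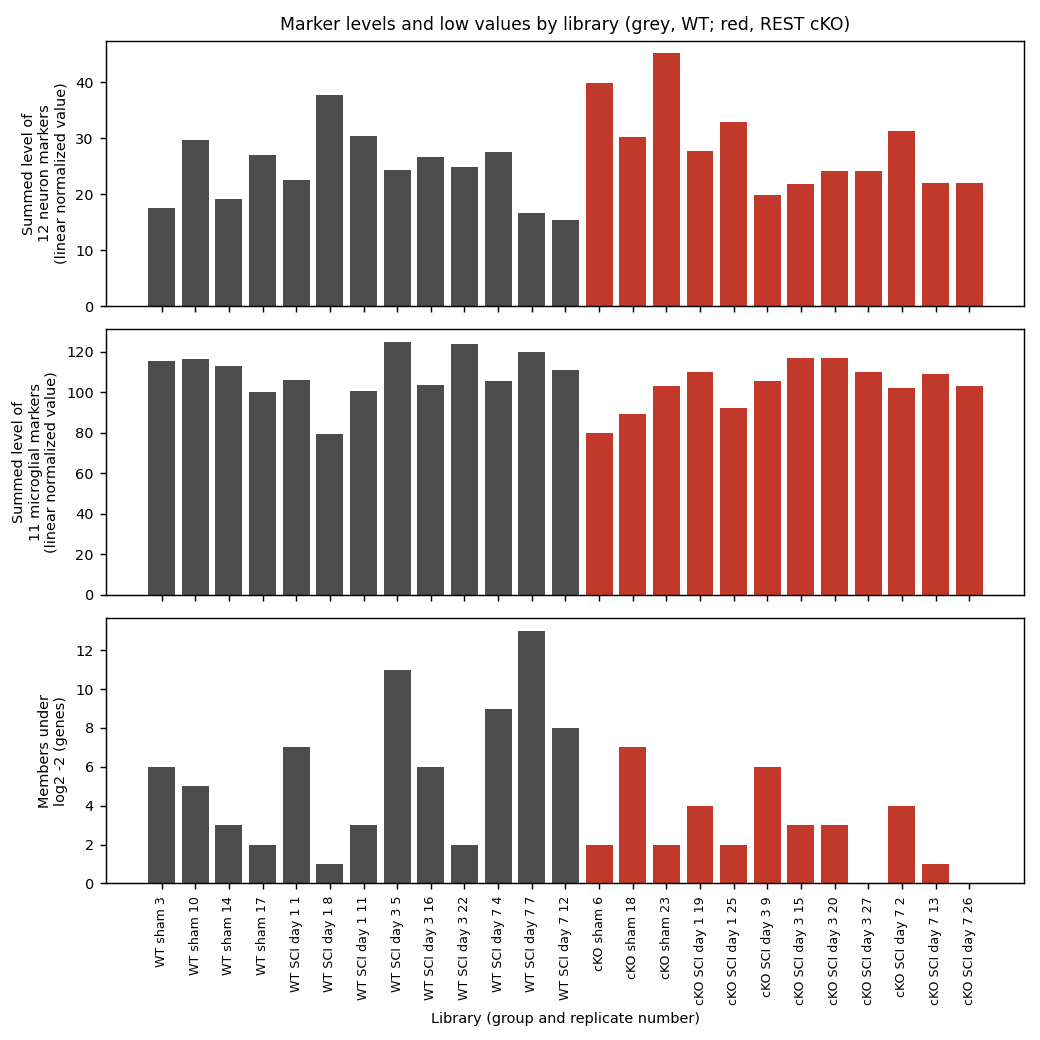
Bars give, for each of the 25 libraries, the summed linear level of 12 neuron markers (top), that of 11 microglial markers (middle) and the number of the 80 members with a log2 value under -2 (bottom), in grey for WT and red for REST cKO. The microglial sum exceeds the neuron sum in every library, the neuron sum is highest in REST cKO sham replicate 23 (45.1), and the WT SCI day 7 libraries hold 8 to 13 low members against 0 to 4 in REST cKO SCI day 7.

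The members were measured more steadily than the table as a whole. The within-group SD had a median of 0.92 over the members and 1.12 over all genes. It was lowest for *Syngr2*, a synaptogyrin found in many cell types (0.22), and highest for *Vamp5*, a VAMP best known from muscle (1.84). Of the 80 members, 48 (60%) never lay under -2 in a library, against 45.4% of all genes. The 7 members under -2 in at least 5 libraries were *Rab39b* (10 libraries), *Rab30* (9), *Rab3b*, *Rab3c* and *Syngr3* (8 each), *Cplx1* and *Rab33b* (6 each), and group differences of these genes rest largely on which libraries held a low value. The median of the 80 values lay between 0.78 and 1.82 in every library.

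**Figure D2:**
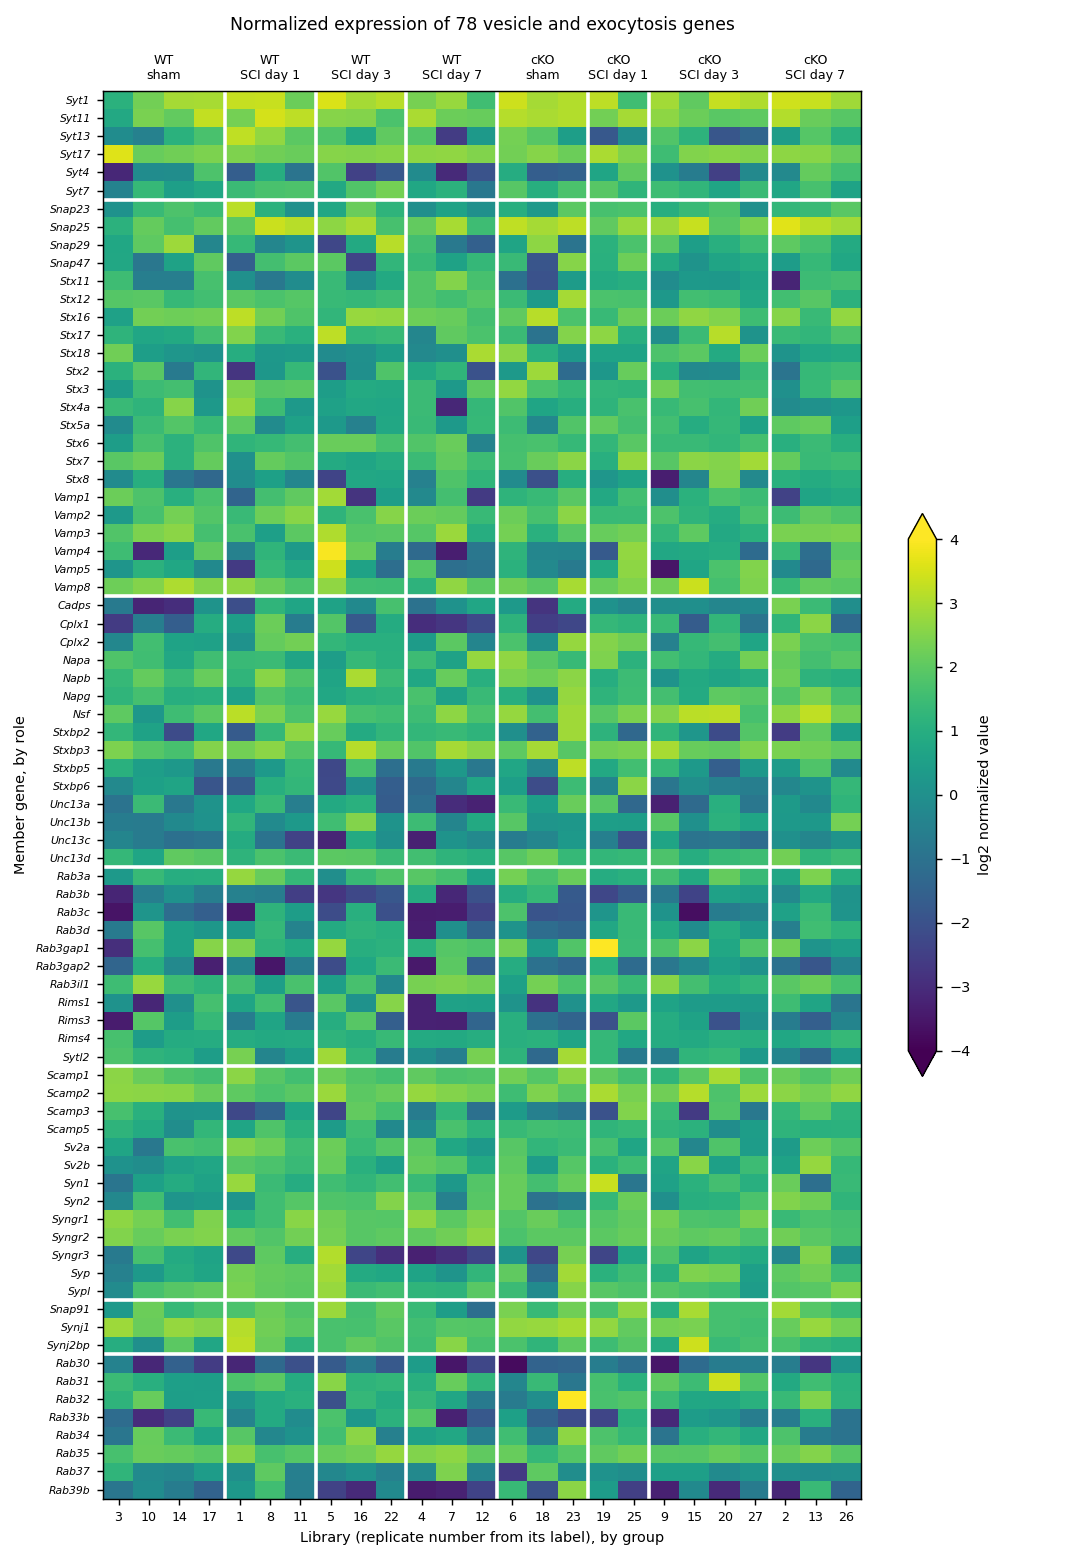
Each row is one of 78 members and each column a library, with colour giving the log2 normalized value from -4 to 4, columns grouped by condition and rows by role (from the top: synaptotagmins, SNARE proteins, SNARE assembly, RAB3 and active zone, vesicle membrane and synapsins, endocytosis and other, other RAB GTPases). *Syngr2*, with a within-group SD of 0.22, has nearly the same colour in every library, while *Rab3c*, *Syngr3*, *Cplx1* and *Rab39b* switch between low and high values within groups.

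No member passed the adjusted threshold in any of the 12 comparisons fitted with limma, and very few genes of any kind did. Of all 9931 genes, 1 (0.0101%) passed at day 3 of SCI in WT, 3 (0.0302%) between genotypes in sham, 2 (0.0201%) at day 3 of SCI in REST cKO and 2 (0.0201%) for the interaction at day 7. In the other 8 comparisons 0 genes (0%) passed. Members are therefore described by their values, by the count with an unadjusted p under 0.05 in each direction and by their median, each beside the same over all genes. The comparisons are not separate evidence, since the 3 WT injury comparisons share the WT sham libraries with the genotype comparison in sham, and the interactions share both sham groups. Each genotype comparison after SCI also shares its injured groups with the injury comparisons of the same day.

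In WT after SCI the question is how injury alone moves these genes. At day 1, 10 of the 80 members (12.5%) were higher with an unadjusted p under 0.05 and 0 were lower, against 3.92% and 2.52% of all genes, and the median difference was 0.18 against 0.12. They were *Snap25*, *Syp*, *Syt13*, *Stx3*, *Synj2bp*, *Nsf*, *Sv2b*, *Rab3a*, *Syt11* and *Sv2a*. The count was 3 without WT SCI day 1 replicate 8, 4 without replicate 1 of that group and 5 without WT sham replicate 3. At day 3, 5 members (6.25%) were higher and 2 (2.5%) lower, against 3.64% and 3.26% of all genes, with a median of 0.27 against 0.01. Without WT SCI day 3 replicate 5, the library with the most low values, these counts were 3 and 4, and without WT sham replicate 3 the higher count was 2. At day 7, 1 member (1.25%) was higher and 4 (5%) lower, against 2.16% and 4.72%, with medians of 0.01 and -0.12. Markers of other cells moved as well. At day 3, 3 of 6 astrocyte markers (median 1.02) and 2 of 7 endothelial markers (median 0.80) were higher with an unadjusted p under 0.05, and 1 astrocyte and 1 of 11 microglial markers were lower. At day 1, 10 of 12 neuron markers had positive differences (median 0.61) and 0 of 11 microglial markers did (median -0.29), in each case 0 with an unadjusted p under 0.05. With the summed neuron markers as a term in the model, 7 members were higher and 1 lower at day 1 with an unadjusted p under 0.05. Also at day 1, 4 of 6 astrocyte markers were higher, and the oligodendrocyte markers summed to 9.52, 62.8 and 49.4 in the 3 libraries against 8.69 to 16.9 in WT sham; the part of these other cells' markers in the result was not tested.

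Between genotypes the question is whether these genes lie higher after loss of REST. In sham, 5 members (6.25%) were higher in REST cKO and 0 lower, against 3.67% and 3.24% of all genes, and the median was 0.19 against 0.04. The 5 were *Snap25*, *Syn1*, *Syt11*, *Syt1* and *Syt7*. The higher count was 1 without WT sham replicate 3, 3 without WT sham replicate 14, 2 without REST cKO sham replicate 6 or 23, and 9 without REST cKO sham replicate 18. With the summed neuron markers as a term in the model it was 2. Beside these members, 2 of 12 neuron markers and 4 of 6 astrocyte markers were higher and 3 of 11 microglial markers lower in REST cKO sham. The sham result differed between batches 1 and 2. REST cKO sham replicate 23 was in batch 3, which held no WT sham library, so that genotype and batch were partly confounded. Within batch 1 (1 REST cKO and 2 WT libraries) all 14 of the textbook REST targets and core release genes named here were higher in REST cKO, and within batch 2 (1 and 2 libraries) 4 of the 14 were, namely *Snap25*, *Syn1*, *Rab3a* and *Unc13a*. The median over the 80 members was 0.57 within batch 1 and -0.20 within batch 2, and over all genes it was 0.11 and -0.20. At day 1, 0 members were higher and 1 (1.25%) lower, against 2.81% and 0.997%, and at day 3, 1 member was higher (1.25%) and 2 (2.5%) lower, against 3.81% and 2.57%. The medians were 0.16 against 0.19 at day 1 and -0.13 against 0.05 at day 3.

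At day 7, 10 members (12.5%) were higher in REST cKO than in WT and 2 (2.5%) lower. Of all genes, 7.73% were higher and 2.22% lower, so that much of the table shifted the same way, with a median of 0.23 over all genes and 0.32 over the members. The 10 were *Snap91*, *Cplx1*, *Rab3c*, *Syngr3*, *Snap25*, *Rab3d*, *Unc13a*, *Syt4*, *Syt1* and *Synj1*. In the WT libraries of that day 11.1% to 16.98% of all genes and 8 to 13 members lay under -2, and in the REST cKO libraries 2.77% to 10.7% of all genes and 0 to 4 members. With that share as a term in the model the count was 11, with the summed neuron markers as a term it was 5, without REST cKO SCI day 7 replicate 13 it was 5 and without WT SCI day 7 replicate 12 it was 6. Of the markers, 11 of 12 neuron markers (median 0.51) and 6 of 6 astrocyte markers (median 0.57) had positive differences, 1 of each list with an unadjusted p under 0.05. Within batch 1 (1 REST cKO and 2 WT libraries) the members' median was 0.43, and within batch 2 (1 and 1) it was 0.29. That of all genes was 0.22 and -0.06. REST cKO SCI day 7 replicate 26 was in batch 3, which held no WT library of day 7, so that genotype and batch were partly confounded.

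In REST cKO mice, SCI was compared with REST cKO sham. At day 1, 1 member was higher and 1 lower (1.25% each), against 4.27% and 1.02% of all genes, with medians of 0.13 and 0.29. At day 3, 1 was higher (1.25%) and 4 (5%) lower, against 2.92% and 1.73%, and the median was -0.14 over the members and 0.03 over all genes. The lower count at day 3 was 1 without REST cKO sham replicate 23, and the higher count was 5 without REST cKO sham replicate 6. At day 7, 1 was higher (1.25%) and 0 lower, against 3.54% and 2.12%, with medians of 0.03 and 0.07. Neuron markers moved with the day 3 result, since 3 of 12 were lower and 3 of 11 microglial markers higher. With the summed neuron markers as a term, the median at day 3 was 0.19. The interaction asks whether injury acted differently in the 2 genotypes, as the change in REST cKO minus the change in WT. At day 3 it was positive for 1 member (1.25%) and negative for 5 (6.25%), against 2.89% and 2.26% of all genes, with a median of -0.38 against 0.03. The 5 were *Napb*, *Snap25*, *Syt1*, *Syn1* and *Syt7*, and the count was 0 with the summed neuron markers as a term, 2 without WT SCI day 3 replicate 16 and 3 without any of WT sham replicate 3, REST cKO sham replicate 6 and REST cKO SCI day 3 replicate 15. In the same interaction 2 of 6 astrocyte markers (median -1.28), 2 of 7 endothelial markers (median -0.77) and 1 of 12 neuron markers (median -1.06) were negative and 2 of 11 microglial markers positive, and the part of the markers other than neuronal in the result was not tested. At day 7 it was positive for 3 members (3.75%) and negative for 0, against 4.3% and 2.05%, with medians of 0.13 and 0.19. The positive count was 1 without REST cKO SCI day 7 replicate 13 and 6 without REST cKO sham replicate 6. The negative count ran from 0 to 2 with single libraries left out.

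**Figure D3:**
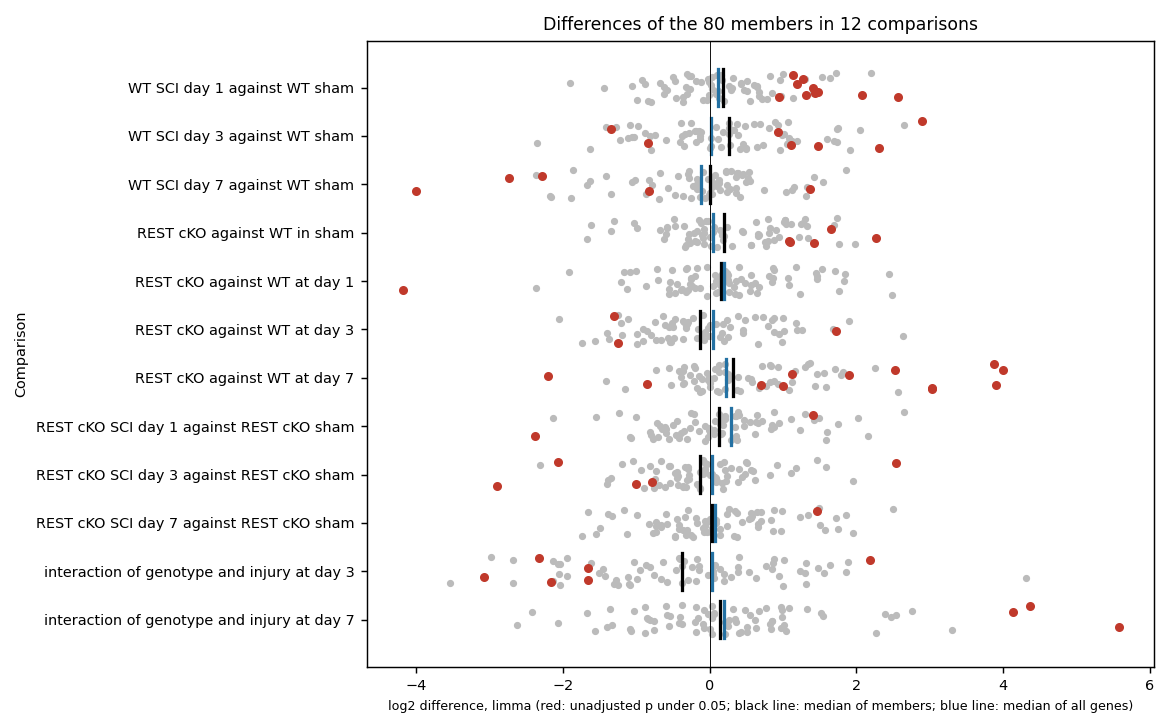
Each point is the limma log2 difference of a member in the comparison on its row, red where the unadjusted p is under 0.05, with black lines for the median of the 80 members and blue lines for the median of all 9931 genes. Red points lie mostly to the right in WT at day 1 (10 higher, 0 lower) and between genotypes at day 7 (10 higher, 2 lower), and mostly to the left in the interaction at day 3 (1 positive, 5 negative).

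The synaptotagmins, a family named for its calcium sensors, had 6 members, *Syt1*, *Syt4*, *Syt7*, *Syt11*, *Syt13* and *Syt17*. *Syt1*, the main sensor for fast release, had log2 values of 1.12, 2.28, 2.93 and 2.95 in WT sham and 3.40, 2.93 and 3.09 in REST cKO sham. WT sham replicate 3 lay lowest, and the groups overlapped. The difference in sham was 1.08 (SE 0.48, adjusted p = 0.677) with that library and 0.72 without it, 1.70 within batch 1 of the labels and -0.01 within batch 2. At day 7 its values were 2.36, 2.76 and 1.55 in WT and 3.43, 3.34 and 2.84 in REST cKO, groups that did not overlap, with a difference of 1.00 (SE 0.45, adjusted p = 0.459). In WT at day 3 it was 3.56, 2.92 and 3.13, a difference from sham of 1.11 (SE 0.47, adjusted p = 0.655) that was 1.86 within batch 1 and -0.02 within batch 2. *Syt11*, a synaptotagmin that does not bind calcium, had sham values of 0.84, 2.40, 2.07 and 3.28 in WT and 3.12, 2.98 and 3.08 in REST cKO (difference 1.09, SE 0.48, adjusted p = 0.677). That difference was 1.51 within batch 1, 0.31 within batch 2 and 0.71 without WT sham replicate 3, and it turned to -0.11 with the summed neuron markers as a term.

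*Syt13*, another synaptotagmin that lacks calcium binding, differed from sham in opposite directions in the 2 genotypes at day 1, a contrast that was not tested itself. It was -0.12, -0.49, 1.12 and 1.71 in WT sham and 3.25, 2.71 and 1.97 in WT at day 1, with no overlap and a difference of 2.57 (SE 1.00, adjusted p = 0.656), or 3.28 within batch 1 and 0.56 within batch 2. In REST cKO it was 2.34, 1.93 and 0.50 in sham and -1.79 and -0.09 at day 1, again with no overlap but in the other direction (-2.37, SE 1.12, adjusted p = 0.924), or -1.20 without REST cKO SCI day 1 replicate 19, -3.72 within batch 2 and -0.59 within batch 3. REST cKO therefore lay under WT at day 1 by -4.18 (SE 1.29, adjusted p = 0.999), on 2 REST cKO libraries of which only 1 shared a batch with a WT library of that day. *Syt4*, a textbook REST target, ranged from -3.10 to 1.76 in WT sham alone. At day 7 it was -0.14, -3.05 and -1.95 in WT and -0.23, 2.10 and 1.57 in REST cKO, groups that overlapped by a small margin (difference 3.03, SE 1.34, adjusted p = 0.446). In sham its difference was -0.27 (SE 1.44, adjusted p = 0.987), of opposite sign in the 2 batches (2.56 and -2.46).

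Among the 23 SNARE proteins *Snap25* carried the smallest unadjusted p of any member between genotypes in sham. SNAP25 (chr2:136713453-136782428, plus strand of GRCm38) is the plasma membrane SNARE of neurons. Its log2 values were 1.13, 2.11, 1.65 and 2.09 in WT sham and 3.23, 2.92 and 3.21 in REST cKO sham. Every REST cKO library lay above every WT library, and the difference was 1.66 (SE 0.45, adjusted p = 0.367). It was 1.61 within batch 1 and 1.06 within batch 2, and lay between 1.48 and 1.97 when single libraries were left out. With the summed neuron markers as a term it was 1.05 (adjusted p = 0.898), and with sex as a term 1.88 (adjusted p = 0.231).

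*Snap25* in WT after injury was 2.00, 3.35 and 3.13 at day 1 (difference 1.19, SE 0.40, adjusted p = 0.634), 2.63, 2.99 and 1.66 at day 3 and 2.07, 2.96 and 1.52 at day 7. The WT sham values reached 2.11, so that each of these groups overlapped sham. In REST cKO it was 2.06 and 2.77 at day 1, 2.81, 3.34, 1.93 and 2.40 at day 3 and 3.64, 3.19 and 2.89 at day 7. Between genotypes at day 7 the difference was 1.12 (SE 0.42, adjusted p = 0.343), and the highest WT library (2.96) lay just above the lowest REST cKO library (2.89). The interaction at day 3 was -1.66 (SE 0.67, adjusted p = 0.950), which became -0.86 with the summed neuron markers as a term.

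*Vamp2*, the vesicle SNARE of fast release, had group means from 1.40 to 2.17, and its genotype differences were 0.77 (SE 0.55) in sham and -0.11 (SE 0.51) at day 7. The sham value was 0.41 without WT sham replicate 3, 0.19 with the neuron-marker term, 1.22 within batch 1 and -0.43 within batch 2. SNAREs of other membranes supplied the remaining named genes. *Stx7*, a syntaxin of late endosomes, was 0.90, 0.70 and 0.96 in WT at day 3 and 1.92, 2.61, 2.52 and 2.90 in REST cKO, with no overlap (difference 1.73, SE 0.53, adjusted p = 0.650). That gap held within each of the 3 batches (1.02, 1.86 and 1.94). The same WT libraries of day 3, used in both comparisons, lay under every WT sham library (1.95, 2.19, 1.14 and 2.10). *Vamp3*, the VAMP of recycling endosomes, was lower in REST cKO at day 3 by -1.24 (SE 0.49, adjusted p = 0.713), with values of 3.05, 1.89 and 1.95 in WT and 1.31, 2.02, 0.83 and 1.12 in REST cKO. *Stx11*, a syntaxin of immune cells, was 1.84, 2.51 and 1.68 in WT at day 7 and -3.16, 1.49 and 1.60 in REST cKO, and its difference of -2.20 (SE 1.05, adjusted p = 0.492) was -5.33 within batch 1, -0.19 within batch 2 and -0.64 without REST cKO SCI day 7 replicate 2.

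The 16 genes of SNARE assembly, priming and recycling had a median genotype difference of 0.74 in sham, with 14 of 16 positive, and of 0.84 at day 7, again with 14 of 16 positive. Over all genes the medians were 0.04 and 0.23, with 5148 and 6012 of 9931 positive. At day 1 and day 3 the set had medians of 0.10 and 0.04, with 9 and 8 of 16 positive. In sham 0 of the 16 were higher with an unadjusted p under 0.05 (3.67% of all genes), and at day 7 there were 2 (7.73% of all genes). Of the neuron markers, 11 of 12 were positive in sham (median 0.87) and 11 of 12 at day 7 (median 0.51). *Cplx1* (chr5:108518554-108550024, minus strand), a complexin that clamps and then promotes fusion, gave the second smallest p of any member at day 7. It was -2.97, -2.75 and -2.24 in WT at day 7 and 1.22, 2.60 and -1.26 in REST cKO. The groups did not overlap, and the difference was 3.87 (SE 1.29, adjusted p = 0.284), 4.08 within batch 1 and 4.84 within batch 2. Low values of this kind were not confined to WT at day 7, since *Cplx1* was also -2.61 in WT sham replicate 3 and -2.51 and -2.30 in REST cKO sham. *Unc13a*, the main priming factor of excitatory synapses, had a like shape at day 7, with -1.09, -3.0 and -3.22 in WT and 0.36, -0.19 and 1.23 in REST cKO (difference 3.03, SE 1.16, adjusted p = 0.359).

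*Napb* (chr2:148693985-148732467, minus strand) encodes the brain form of the adaptor that recruits NSF. It was 2.43, 2.25 and 2.60 in REST cKO sham and 0.12, 0.85, 0.67 and 0.95 at day 3. The groups did not overlap, and the difference was -2.07 (SE 0.58, adjusted p = 0.720), or -2.30, -1.48 and -1.64 within the 3 batches. In WT it was 1.37, 2.10, 1.41 and 2.14 in sham and 0.66, 2.99 and 1.46 at day 3, and the interaction was -2.32 (SE 0.91, adjusted p = 0.950). With the summed neuron markers as a term the REST cKO difference was -1.35 and the interaction -1.38, and without WT SCI day 3 replicate 16 the interaction was -1.39. *Unc13a* in the same comparison was 1.41, 0.48 and 2.17 in sham and -3.26, -1.23, 1.06 and -0.84 at day 3, with overlap (-2.90, SE 1.19, adjusted p = 0.996), and the difference was -1.32 with the neuron-marker term.

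*Unc13b*, a second priming factor, was -0.63, -0.69, -0.19 and 0.07 in WT sham and 1.55, 2.51 and 0.12 in WT at day 3, just without overlap (difference 2.31, SE 0.85, adjusted p = 0.629). Without WT SCI day 3 replicate 5 the difference was 2.17, without replicate 16 of that group 1.73 and without replicate 22 it was 2.85. *Cadps*, which encodes CAPS1, a priming factor of dense-core vesicles, was -0.73, -3.18, -2.94 and 0.10 in WT sham and 0.62, -0.20 and 1.69 at day 3 (difference 2.90, SE 1.20, adjusted p = 0.655), with 2 of the sham libraries under -2. *Nsf*, the ATPase that pulls spent SNARE bundles apart, differed between genotypes by 1.02 (SE 0.56) in sham and 0.84 (SE 0.52) at day 7, with overlapping groups. The sham value became 0.45 when WT sham replicate 10 was left out, and the day 7 value 0.52 when REST cKO SCI day 7 replicate 13 was. In sham it was 1.62 within batch 1, -0.14 within batch 2 and 1.65 with the neuron-marker term. *Cplx2*, the other complexin measured, gave 1.30 (SE 0.81) and 1.33 (SE 0.76), also with overlap. In sham it was 1.10 within batch 1, -0.65 within batch 2 and 0.69 without REST cKO sham replicate 23, and it turned to -0.13 with the neuron-marker term. At day 7 that term gave 0.71, and the difference was 2.04 without WT SCI day 7 replicate 7 and 0.93 without replicate 12 of that group. Their adjusted p-values lay between 0.583 and 0.811.

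Of the 11 genes of RAB3, its regulators and the active zone, 6 were positive between genotypes in sham and 7 at day 7, near the share over all genes. *Rab3c* (chr13:110054187-110280996, minus strand), a vesicle GTPase, was -3.38, -3.36 and -2.43 in WT at day 7 and 0.58, 1.47 and 0.14 in REST cKO, without overlap. The difference was 4.00 (SE 1.36, adjusted p = 0.284), 3.95 within batch 1 and 3.89 within batch 2, and 3.21 with the summed neuron markers as a term. In WT sham the gene was already -3.57, 0.19, -1.14 and -1.59. *Rab3d*, the form best known from secretory granules, was -0.72, 1.93, 0.53 and 0.23 in WT sham and -3.34, -0.03 and -1.49 in WT at day 7 (-2.28, SE 0.90, adjusted p = 0.572, or -1.26 without WT SCI day 7 replicate 4), while REST cKO was 0.12, -1.14 and -1.39 in sham and -0.56, 1.55 and 1.20 at day 7. The resulting interaction was 4.14 (SE 1.42, adjusted p = 0.651). *Rab3a*, the most studied form at synapses, was 0.34, 1.38, 0.99 and 1.00 in WT sham and 2.33, 1.71 and 2.16 in REST cKO sham, with no overlap (1.11, SE 0.64, adjusted p = 0.770), and differed by 0.08 (SE 0.59) at day 7. *Rims1*, an active zone scaffold, gave -0.35 (SE 1.37) in sham, with 1.64 within batch 1 and -3.67 within batch 2, and 1.16 (SE 1.28) at day 7. *Rab3il1*, an exchange factor, was 1.51, 2.77, 1.49 and 1.20 in WT sham and 0.48, 1.68 and -0.28 in WT at day 3 (-1.35, SE 0.61, adjusted p = 0.688), with opposite signs in batch 1 (-1.66) and batch 2 (0.34) and a value of -2.19 without WT SCI day 3 replicate 16.

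Among the 13 vesicle membrane proteins and synapsins, *Syn1* (chrX:20860511-20921004, minus strand), whose promoter holds the element printed above, separated the genotypes in sham. SYN1 coats vesicles and ties them into the reserve pool. Its values were -0.90, 0.54, 0.91 and 0.62 in WT sham and 2.15, 1.61 and 2.14 in REST cKO sham, without overlap. The difference was 2.27 (SE 0.92, adjusted p = 0.624), 2.33 within batch 1 and 0.85 within batch 2, and 2.24 with the summed neuron markers as a term. At day 7 the genotypes overlapped, with 1.39, 0.25 and 1.85 in WT and 2.19, -1.08 and 1.41 in REST cKO (-0.35, SE 0.86, adjusted p = 0.935), and differed by 1.37 within batch 1 and -2.93 within batch 2. WT libraries after SCI lay at 2.75, 1.45 and 0.96 at day 1 and 1.55, 1.26 and 1.57 at day 3, all above the WT sham maximum of 0.91. *Scamp5*, a secretory carrier protein of synaptic vesicles and the other promoter match, was 1.21, 0.89, -0.08 and 1.30 in WT sham and 1.40, 1.57 and 1.53 in REST cKO sham. The REST cKO libraries were again all above WT, by 0.83 (SE 0.71, adjusted p = 0.887), and at day 7 the difference was 0.25 (SE 0.66). *Scamp5* was named for its promoter match and not by the rule on p-values.

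*Syp* encodes synaptophysin, an abundant vesicle protein and textbook REST target. It was -0.49, 0.34, 0.98 and 0.72 in WT sham and 2.32, 2.12 and 2.01 in WT at day 1, without overlap (difference 2.07, SE 0.77, adjusted p = 0.639), and 2.29 and 1.16 within the 2 batches. By day 7 it was 0.65, 0.16 and 1.26 in WT and 2.01, 2.26 and 1.5 in REST cKO, without overlap (1.44, SE 0.79, adjusted p = 0.565). In sham the REST cKO libraries were 2.04, -1.16 and 2.90, a spread wider than the difference of 0.80 (SE 0.85), which was 2.11 within batch 1, -2.01 within batch 2, -0.023 without REST cKO sham replicate 6 and 0.081 with the neuron-marker term. *Sv2b*, a vesicle glycoprotein, was 0.09, -0.08, 0.59 and 0.73 in WT sham and 2.09, 1.91 and 0.84 in WT at day 7 (1.37, SE 0.63, adjusted p = 0.686), 1.99 within batch 1 and 0.18 within batch 2. *Sv2a* and *Syn2* differed between genotypes by 0.95 (SE 0.77) and -0.09 (SE 0.88) in sham and by 0.57 (SE 0.71) and 0.93 (SE 0.82) at day 7. Within batches 1 and 2 they were 1.98 and -0.37 for *Sv2a* and 1.47 and -1.27 for *Syn2* in sham, and -0.98 and 1.91 for *Sv2a* at day 7. *Sv2a* was 0.20 in sham without WT sham replicate 10 and 0.037 at day 7 without REST cKO SCI day 7 replicate 13, and *Syn2* was -0.042 at day 7 without WT SCI day 7 replicate 7.

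*Syngr3*, a synaptogyrin of vesicles (chr17:24685092-24689955, minus strand), was the member with the largest change in WT at day 7. It was -0.70, 1.68, 0.89 and 0.65 in WT sham and -3.25, -2.93 and -2.33 in WT at day 7, without overlap (-4.0, SE 1.32, adjusted p = 0.459), and -3.58 and -3.10 within the 2 batches. REST cKO was 0.16, -2.31 and 2.35 in sham and -0.34, 2.48 and 0.05 at day 7, so that low values occurred there too, and the interaction was 5.57 (SE 2.10, adjusted p = 0.651). *Syngr1* was among the few lower in REST cKO at day 7, at 2.67, 1.97 and 2.45 in WT and 1.41, 1.74 and 1.61 in REST cKO without overlap (-0.86, SE 0.39, adjusted p = 0.468).

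Of the 3 genes of endocytosis and other function, *Synj1* encodes synaptojanin 1, the lipid phosphatase that strips clathrin coats from new vesicles. It was 2.82, 2.17, 2.74 and 2.54 in WT sham, and 1.69, 1.68 and 1.97 at day 3 and 1.58, 1.90 and 1.85 at day 7 in WT. Both later groups lay wholly under sham, by -0.84 (SE 0.35, adjusted p = 0.655) and -0.83 (SE 0.32, adjusted p = 0.555), and the gap held within both batches (-0.80 and -0.96 at day 3, -0.75 and -0.79 at day 7). In REST cKO it was 2.72, 2.75 and 2.96 in sham and 2.32, 2.39, 1.64 and 1.55 at day 3 (-0.78, SE 0.35, adjusted p = 0.999), also without overlap, and 2.16, 2.76 and 2.32 at day 7. *Snap91* (chr9:86765923-86880654, minus strand), which encodes the clathrin assembly protein AP180, had the smallest p of any member between genotypes at day 7. It was 1.38, 0.46 and -1.10 in WT and 2.88, 1.89 and 1.46 in REST cKO, without overlap (difference 1.89, SE 0.61, adjusted p = 0.269). It was 1.96 within batch 1 and 2.99 within batch 2, 1.24 without WT SCI day 7 replicate 12, and 1.22 with the summed neuron markers as a term.

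The name pattern also took in 8 RAB GTPases outside the RAB3 branch. Of these *Rab31* (chr17:65651729-65772752, minus strand), a GTPase of Golgi and endosome transport found in many cell types, gave the smallest unadjusted p of any member in any comparison. It was -0.34, 1.42 and -0.84 in REST cKO sham and 2.06, 1.48, 3.40 and 1.87 in REST cKO at day 3, without overlap (2.55, SE 0.64, adjusted p = 0.355), with within-batch differences of 2.40, 1.02 and 2.71. At day 1 it was 1.66 and 1.11 (1.41, SE 0.68, adjusted p = 0.924, or 0.85 without REST cKO SCI day 1 replicate 19) and at day 7 it was 0.86, 1.53 and 1.11 (1.46, SE 0.66, adjusted p = 0.862). Within batches 2 and 3 the day 1 difference was 0.24 and 1.95, and within batches 1, 2 and 3 the day 7 difference was 1.20, 0.11 and 1.94. In WT it was 1.45, 1.05, 0.53 and 0.50 in sham and 2.58, 1.19 and 1.31 at day 3, and the interaction was 2.18 (SE 1.01, adjusted p = 0.955). With the summed neuron markers as a term the REST cKO difference at day 3 was 1.94 (adjusted p = 0.949). Without these 8 genes, 10 of 72 members were higher and 0 lower in WT at day 1 (3.92% and 2.52% of all genes), and 10 higher and 2 lower between genotypes at day 7 (7.73% and 2.22%).

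**Figure D4:**
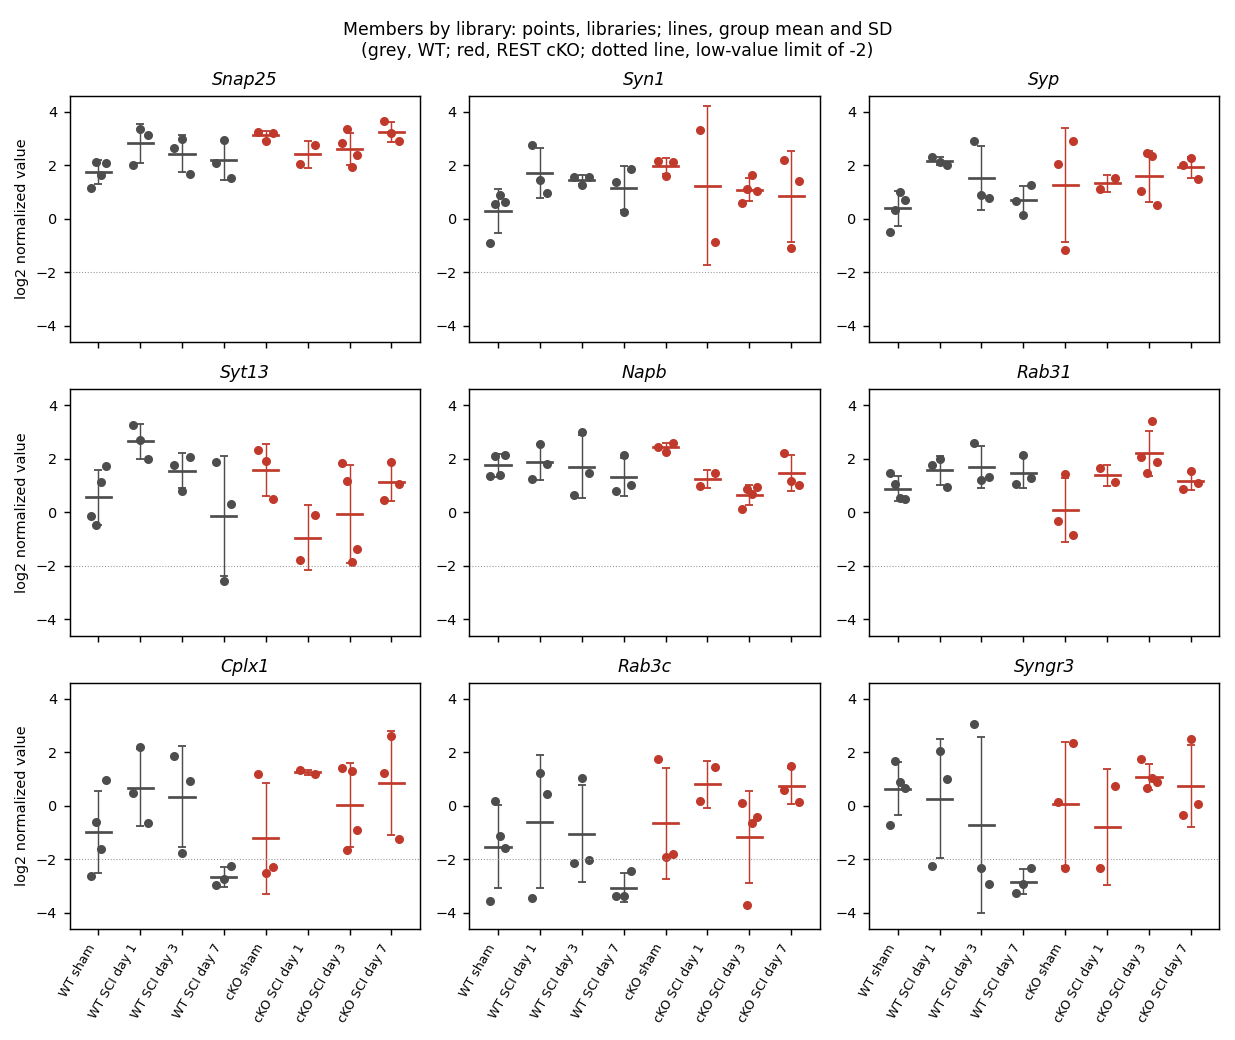
Points are single libraries, horizontal lines group means and vertical bars SD, on the log2 scale, for 9 members in the 8 groups (grey WT, red REST cKO), with a dotted line at -2. *Snap25* and *Syn1* lie higher in REST cKO sham than in WT sham, *Syp* and *Syt13* higher in WT at day 1 than in WT sham, *Napb* lower and *Rab31* higher in REST cKO at day 3 than in REST cKO sham, and *Cplx1*, *Rab3c* and *Syngr3* under -2 in all 3 WT libraries of day 7.

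The 4 textbook REST targets and the 12 measured genes of the core release machinery were counted by the sign of their difference. In WT, where REST was in place, 4 of the 4 and 11 of the 12 were higher at day 1 than in sham, with medians of 1.30 and 0.82, and 3 of the 4 and 10 of the 12 at day 3, with medians of 0.99 and 0.77. At day 7 it was 3 of the 4 and 8 of the 12, with medians of 0.39 and 0.13. Over all 9931 genes 5556, 5035 and 4358 were higher at these days, with medians of 0.12, 0.01 and -0.12, and the comparisons share the WT sham libraries. Of the 12 neuron markers 10, 7 and 2 were higher at these days, with medians of 0.61, 0.11 and -0.36. Between genotypes in sham, 3 of the 4 and 8 of the 12 were higher in REST cKO, with medians of 1.23 and 0.86, beside 5148 of 9931 genes with a median of 0.04 and 11 of 12 neuron markers with a median of 0.87. At day 1 the counts were 2 of 4 and 5 of 12, with medians of -0.11 and -0.15, beside 5801 of 9931 genes with a median of 0.19. At day 7, 3 of the 4 and 11 of the 12 were higher, with medians of 1.28 and 0.91, beside 6012 of 9931 genes with a median of 0.23 and 11 of 12 neuron markers with a median of 0.51. At day 3, 1 of the 4 and 3 of the 12 were higher, with medians of -0.04 and -0.55, beside 5207 of 9931 genes with a median of 0.05. These lists were written with earlier results of the data known, and 0 of their genes passed the adjusted threshold.

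Other genes of the pathway, from a list of active zone, vesicle pump, endocytosis and cargo genes that holds 78 measured genes outside the members, had counts of a like order. In WT at day 1, 7 of 78 were higher and 0 lower (all genes 3.92% and 2.52%), among them *Atp6v1e1*, a subunit of the vesicle proton pump (2.64, SE 0.77, adjusted p = 0.569). Between genotypes in sham, 8 were higher and 0 lower (all genes 3.67% and 3.24%), led by *Chgb*, a dense-core granule protein (2.22, SE 0.67, adjusted p = 0.487). At day 7, 12 were higher and 0 lower (all genes 7.73% and 2.22%). They included *Pip5k1c*, the lipid kinase that starts vesicle endocytosis (4.48, SE 1.04, adjusted p = 0.157), *Dnajc6*, which encodes the uncoating factor auxilin (4.13, SE 0.97, adjusted p = 0.157), and *Atp6v1h*, a proton pump subunit (2.58, SE 0.64, adjusted p = 0.169). For these 3 genes the difference of WT at day 7 from WT sham was -3.13, -2.35 and -1.95. It is no separate evidence, since both comparisons use the same WT libraries of day 7. At day 3 the interaction was negative for 5 and positive for 0 (all genes 2.26% and 2.89%), among them *Slc17a7*, the vesicular glutamate transporter that is also on the neuron marker list (-1.91, SE 0.63, adjusted p = 0.912). None of the 78 passed the adjusted threshold in any comparison. Their counts were not refitted with the neuron-marker or low-value term, nor with single libraries left out.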

How the data were processed

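The authors mapped QuantSeq 3′ reads to mm10/GRCm38 with STAR, quantified them with Salmon and tximport, scaled libraries by the geometric means of DESeq2, took out batch variation by RUV and removed genes lacking counts in most libraries. The values deposited by the authors are log2 normalized values. The table holds no read totals, so depth per library is unknown and errors come from replicate libraries alone. Columns of the authors' own comparisons (fold changes and p-values) were not used.

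Of 9955 rows, 24 (0.241%) without a symbol were left out. limma 3.58.1 (R 4.3.3) fitted 8 group means and the 2 sequencing components of the labels to all 25 libraries, with a trend of variance on mean level. P-values were adjusted over 9931 genes (Benjamini-Hochberg), and the threshold was an adjusted p under 0.1. Values of 140 genes, 0 of them members, correlated with a component by over 1e-05, and 0 pairs of libraries were identical. The values of all 80 members and of the remaining genes had no correlation with either component beyond that limit. Both components had therefore already been taken out of those deposited values. The fits without components do not put them back. The study counts its replicates as mice, but the labels do not tie each library to a mouse. The fit was tested on simulated data.

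The members, the lists and the tests were chosen with earlier results of these data known. Always named were 17 release and REST target genes, of which 16 were measured and 14 are reported here, and, per comparison, the 3 higher and 3 lower members with the smallest unadjusted p under 0.05. The 8 RAB genes outside the RAB3 branch were set apart after their names were seen. Gene positions are from GENCODE (GRCm38) and promoters from RefSeq (GRCm38.p6). Alternatives changed the components, batch and sex terms, library weights, trend, filter, normalization, threshold and libraries. Terms for low values and for neuron markers, the fit without WT SCI day 3 replicate 5 and the unadjusted counts under each alternative were added after seeing the data.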

Additional observations from a re-analysis of the deposited data

Results flagged for a closer look

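In groups of 4 libraries, the highest or lowest library was compared with its neighbour for the 31 named members in WT sham and in REST cKO SCI day 3, which makes 62 tests. In 1 of them a library stood apart, against about 1 in 20 that chance gives. *Rims1* in REST cKO SCI day 3 replicate 9 was 0.65, where the nearest of the other libraries was 0.39 and the farthest 0.37. The gap was 0.953 of the range of the group, above the critical value of Dixon's test.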

How the results depend on the processing

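No member passed the adjusted threshold in any of the 244 alternative counts, and of 232 medians 229 moved by less than the spread between libraries. Of 464 counts at an unadjusted p under 0.05, 177 moved by over 1.5 times, most of them counts of a few genes. No paired analysis was possible because the groups share no replicate numbers, and batch as a term was fitted in its place. Unknown depth limits what low values can show. The cause of the changes below was not tested.

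Members higher in WT at day 1 (10) numbered 6 without the variance trend. In WT at day 3 (5) they numbered 3 with batch as a term, without the trend or with the neuron-marker term, and 2 when the fit held only the groups compared and also dropped the components. Between genotypes in sham (5) they numbered 2 with the neuron-marker term. At day 7 (10) they numbered 5 among genes with a mean of at least 0, 6 after quantile normalization and 5 with the neuron-marker term. Negative interactions at day 3 (5) numbered 3 without components, without the trend or with the low-value term, and 0 with the neuron-marker term. The median of REST cKO day 1 against sham was -0.12 after quantile normalization, and that of REST cKO day 3 against sham was 0.19 with the neuron-marker term. Leaving out 1 library at a time, these counts ran from 3 to 10, 2 to 8, 1 to 9, 5 to 11 and 2 to 6, and the REST cKO day 1 median from -0.12 to 0.21.

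Differences between genotypes in sham that turned were *Syt4* (0.49) and *Syn2* (0.051) with sex as a term, *Syt4* (0.033) without WT SCI day 3 replicate 5, *Syn2* with library weights (0.21) and quantile normalization (0.16), and *Syt11* (-0.11), *Cplx2* (-0.13) and *Rims1* (0.65) with the neuron-marker term. At day 7, *Rab3a* turned without components, whether all groups or only the groups compared were fitted (-0.018 each), and with the sex (-0.50), low-value (-0.10) and neuron-marker (-0.055) terms. *Syn1* (0.032) and *Vamp2* (0.25) turned with sex. Leaving out 1 library, sham differences ran from -0.023 to 1.55 for *Syp*, -2.18 to 0.48 for *Syn2*, -2.07 to 0.19 for *Syt4* and -1.66 to 0.22 for *Rims1*. Those at day 7 ran from -0.34 to 0.049 for *Vamp2*, -0.21 to 2.02 for *Rims1*, -0.042 to 1.53 for *Syn2*, -1.01 to 0.76 for *Syn1* and -0.59 to 0.37 for *Rab3a*.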
